A study of Homo sapiens with 6 samples.

Results

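Transcripts of 9 dual-specificity MAP kinase phosphatase genes, DUSP1, DUSP4, DUSP5, DUSP6, DUSP7, DUSP8, DUSP10, DUSP14 and DUSP16, were followed after knockdown of POLR1F, a subunit of RNA polymerase I. The genes were taken by name from a table of 33539 genes, and all 9 were found in it. The cells were 8505C, an established line of anaplastic thyroid cancer that carries an activating BRAF mutation. Every culture was grown in RPMI-1640 with 10% fetal bovine serum and received siRNA for 24 h, either the control siRNA labelled NC (3 libraries) or one against POLR1F (siPOLR1F, 3 libraries). The labels name no siRNA sequence and leave unsaid whether the 3 libraries were grown separately, so p-values reflect only differences among these preparations, which could be technical.

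MAP kinases are switched on by phosphorylation of a threonine and a tyrosine in their activation loop, and dual-specificity phosphatases switch them off by removing both phosphates. Most members of the family carry a kinase-binding domain that directs them to ERK, JNK or p38. Several are themselves immediate-early or ERK-induced genes, so that their transcripts form a negative feedback loop on the pathway that induces them. Transcript levels do not show phosphatase activity or the phosphorylation of any kinase, which were not measured here.

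One phosphatase gene of the 9 rose after POLR1F knockdown. DUSP5, which encodes a nuclear phosphatase selective for ERK, stood at 28.6 ± 3.75 FPKM in NC (SD, n = 3) and at 41.7 ± 4.34 in siPOLR1F (SD, n = 3), a ratio of 1.46. FPKM counts sequenced fragments relative to gene length and to the size of the library. Of the 8 members tested, 1 rose and 7 did not pass (quasi-likelihood test of edgeR, threshold 0.05 on the adjusted p). Among all 13564 genes tested, 10.3% were higher and 6.94% lower, 17.2% in all. The members' count, 1 of 8, was near that background. The ninth gene, DUSP8, lay under the filter for testing, a mean of at least 0.5 FPKM over the 6 libraries. At an unadjusted p under 0.05 there were 2 members, DUSP5 and DUSP10. The median log2 fold change of the 8 tested members was 0.12, beside -0.01 for all genes tested. Groups did not overlap in FPKM for 1 of the 9 members, DUSP5, which was higher in siPOLR1F. Of all tested genes 18.9% were higher without overlap, and the share lower without overlap was not counted.

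The libraries were alike in depth, with 60576788 to 63038378 counts. POLR1F itself was at 8.80, 8.42 and 7.64 FPKM in NC and at 2.09, 1.42 and 1.51 in siPOLR1F (edgeR log2 fold change -2.30, SE 0.15, adjusted p = 9.76e-05). Of 6 thyroid cancer epithelial markers, KRT8, KRT18 and NKX2-1 were abundant (by edgeR, NKX2-1 fell with a log2 fold change of -0.71, adjusted p = 4.35e-04, and KRT8 with -0.25, adjusted p = 0.0197), while PAX8, KRT19 and EPCAM were each below 1 FPKM in the mean of either group. Their summed level was 309 to 347 FPKM in NC and 253 to 287 in siPOLR1F. Of 4 immune markers, 2 were in the table: PTPRC was at most at 0.00907 FPKM, while CD68 brought the summed level to 7.52 to 12.4 FPKM in NC and 9.94 to 15.7 in siPOLR1F (edgeR log2 fold change of CD68 0.48, adjusted p = 0.162). The 3 endothelial markers summed to 5.62 to 6.75 FPKM in NC and 2.36 to 4.79 in siPOLR1F, most of it CDH5, which fell (edgeR log2 fold change -1.04, adjusted p = 0.00308), and 3 fibroblast markers to at most 1.75. The part of these markers in the results below was not tested. In bulk RNA, fewer cells with a transcript and less transcript per cell cannot be told apart.

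Per length, DUSP1 was by far the most abundant member, and the JNK and p38 phosphatases were the scarcest. By mean FPKM in NC the order was DUSP1 (157), DUSP5 (28.6), DUSP14 (16.04), DUSP6 (13.6), DUSP4 (10.6), DUSP7 (8.55), DUSP10 (1.63), DUSP16 (1.33) and DUSP8 (0.386). DUSP4 and DUSP7 overlapped between NC libraries, as did DUSP10 and DUSP16; the other neighbours in this order did not. The NC mean of DUSP1 was above that of 98.8% of tested genes, that of DUSP5 above 90.6% and that of DUSP16 above 19.5%. In siPOLR1F the mean of DUSP6 (15.98) passed that of DUSP14 (14.2), with overlapping libraries.

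**Figure D1:**
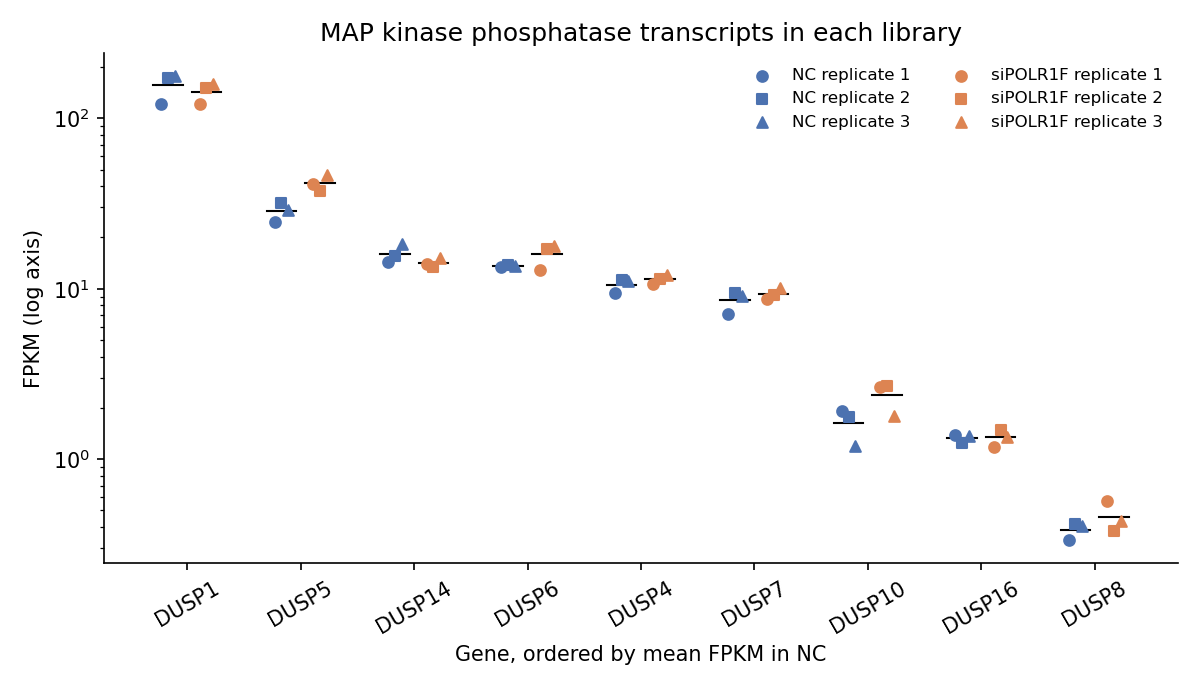
FPKM of the 9 phosphatase genes in each library on a log axis, with genes ordered by their NC mean, NC in blue, siPOLR1F in orange, a marker shape per replicate number and a black line at each group mean. DUSP1 lies above 120 FPKM in every library, and DUSP5 is the gene whose siPOLR1F points all lie above its NC points.

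DUSP1 (ENSG00000120129, GRCh38 chromosome 5, 172768096 to 172771195, minus strand) encodes a nuclear phosphatase that acts on p38, JNK and ERK and is a classic immediate-early gene. It was at 121, 173 and 177 FPKM in NC and at 121, 151 and 160 in siPOLR1F. Replicate 1 was the lowest of both groups. NC replicates 2 and 3 lay above every siPOLR1F library, so the groups overlapped only through NC replicate 1. The log2 fold change was -0.12 (SE 0.15, 95% interval -0.45 to 0.21; edgeR adjusted p = 0.614). Counts behind these values were 16865 to 24710 per library, and the difference was smaller than the spread between libraries.

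Sequences are shown for DUSP1 and DUSP8, the most and the least abundant member, because both hold the cyclic AMP response element, a site bound by CREB and ATF proteins, in the 300 bases around their start site. The windows run from 250 bases before to 50 bases after the RefSeq start site (GRCh38.p14) and are printed 5′ to 3′ on the minus strand. DUSP1 is chr5:172771146-172771445 and DUSP8 is chr11:1572222-1572521. Capitals mark the core TGACG in either orientation, the palindrome TGACGTCA that contains it on both strands, the E-box CACGTG and the TATA motif TATAAA, also searched on both strands.
DUSP1 promoter: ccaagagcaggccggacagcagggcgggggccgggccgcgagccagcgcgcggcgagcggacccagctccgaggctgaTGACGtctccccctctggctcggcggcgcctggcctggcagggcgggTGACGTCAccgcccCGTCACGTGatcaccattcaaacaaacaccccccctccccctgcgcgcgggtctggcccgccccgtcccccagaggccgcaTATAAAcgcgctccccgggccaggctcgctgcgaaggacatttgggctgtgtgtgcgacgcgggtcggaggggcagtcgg
DUSP8 promoter: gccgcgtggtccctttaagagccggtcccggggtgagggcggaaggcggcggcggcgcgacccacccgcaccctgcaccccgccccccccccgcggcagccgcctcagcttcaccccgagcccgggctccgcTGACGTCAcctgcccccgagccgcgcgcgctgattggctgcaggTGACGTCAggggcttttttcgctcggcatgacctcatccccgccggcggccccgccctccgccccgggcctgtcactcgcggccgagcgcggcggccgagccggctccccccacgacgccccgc
The palindrome TGACGTCA occurred 1 time in the DUSP1 window, from 125 bases before the start site, and 2 times in the DUSP8 window, from 118 and 74 bases before it. It occurred in 1.85% of 35116 RefSeq windows of this length, and TGACG in 24.6%. DUSP1 also held the E-box, found in 7.26% of windows and here overlapping a TGACG on the other strand, and TATAAA, found in 11.5%, from 30 bases before the start. The windows of DUSP6, DUSP7, DUSP14 and DUSP16 held none of these 4 motifs, and 1 of the 2 windows of DUSP10 held TGACG. The AP-1 motif TGANTCA (7.71% of windows), the ETS motif CCGGAAG (10.3%) and the CArG box (1.29%) occurred in none of the 8 windows searched. No window of DUSP4 or DUSP5 was searched, so these absences do not cover them. The same palindrome thus stood in front of the members with the highest and the lowest level.

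AU-rich elements, which mark short-lived mRNAs for decay, were searched in the longest annotated 3′ UTR of each gene (GENCODE 29, at least 50 bases). DUSP1 stood out with 2 copies of the nonamer TTATTTATT in a UTR of 672 bases, against at least 1 copy in 9.58% and at least 2 in 2.29% of 11151 tested genes searched. DUSP4 and DUSP8 held 1 copy each, and the other 6 members held 0. The sites of DUSP1 and DUSP8 are printed with the nonamer in capitals.
DUSP1 first site: gctggtccTTATTTATTtaacttcac
DUSP1 second site: aatataccTTATTTATTtttgtgtag
DUSP8 site: tcgattttTTATTTATTtaagctgtt
The pentamer ATTTA occurred 4 times in the DUSP1 UTR (5.95 per kilobase), beside a median of 1.73 per kilobase over the genes searched. In the DUSP5 UTR of 1118 bases it was absent, although 74.3% of the genes searched held it. DUSP4 had the most copies, 6 in 3962 bases (1.51 per kilobase), and DUSP1 the most per kilobase. DUSP6 had 1 copy in 2022 bases, and DUSP14 had 3 copies in 632 bases. A relation between these words and the changes was not tested. Of 11 proteins that bind such elements, KHSRP, which promotes decay of AU-rich mRNAs, passed (log2 fold change 0.23; edgeR adjusted p = 0.0327), and 10 did not. That count stands beside 10.3% of all tested genes that were higher. The call for KHSRP ended without NC replicate 1 (0.0649) or 3 (0.0689) and without siPOLR1F replicate 1 (0.0510), 2 (0.0904) or 3 (0.116), within 0.00483 to 0.132 over its alternatives.

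DUSP5 (ENSG00000138166, chromosome 10, 110497907 to 110511533, plus strand) separated the groups completely. Its FPKM was 24.6, 32.1 and 29.2 in NC and 41.4, 37.6 and 46.2 in siPOLR1F, from 4398 to 8132 counts per library. The highest NC library and the lowest siPOLR1F library were 32.1 and 37.6. The log2 fold change was 0.55 (SE 0.11, 95% interval 0.31 to 0.79; edgeR adjusted p = 0.0106). It was also called without each library in turn, with a highest adjusted p of 0.0421, and by DESeq2 (2.79e-06). With no filter on low values, where every gene with any count enters the adjustment, it was 0.0676 and missed the threshold. The pseudogene DUSP5P1 took 20 to 35 counts per library; how reads shared with it were assigned is not given in the sources used here.

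DUSP4 (ENSG00000120875, chromosome 8, 29333064 to 29350684, minus strand) encodes the third nuclear inducible phosphatase of the set and acts on ERK, JNK and p38. Its FPKM was 9.40, 11.2 and 11.05 in NC, against 10.7, 11.4 and 12.0 in siPOLR1F. The 2 highest siPOLR1F libraries exceeded all NC libraries and the lowest did not. The log2 fold change was 0.11 (SE 0.08, 95% interval -0.06 to 0.29; edgeR adjusted p = 0.344). Of the 3 nuclear inducible phosphatases, then, 1 rose, DUSP5, and 2 did not pass, beside 10.3% of all tested genes that were higher.

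The cytoplasmic phosphatases DUSP6 and DUSP7 are selective for ERK, and DUSP6 is a standard readout of ERK activity. DUSP6 (ENSG00000139318, chromosome 12, 89347235 to 89352501, minus strand) was at 13.5, 13.9 and 13.5 FPKM in NC and at 12.9, 17.2 and 17.8 in siPOLR1F. The NC libraries lay close together, while siPOLR1F replicate 1 was below all of them and the other siPOLR1F libraries were above. The log2 fold change was 0.23 (SE 0.11, 95% interval -0.02 to 0.49; edgeR adjusted p = 0.177). Without siPOLR1F replicate 1 it was 0.36 with an adjusted p of 0.0184, so that this library decided the call, and over all alternatives the adjusted p lay between 0.0184 and 0.455. An unnamed gene on the opposite strand overlaps DUSP6 at 2.96% of its NC level.

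DUSP7 (ENSG00000164086, chromosome 3, 52048919 to 52056571, minus strand) was at 7.13, 9.48 and 9.04 FPKM in NC and at 8.72, 9.13 and 10.1 in siPOLR1F. NC replicate 1 was the lowest of the 6 and siPOLR1F replicate 3 the highest. Its log2 fold change was 0.13 (SE 0.11, 95% interval -0.11 to 0.38; edgeR adjusted p = 0.434). Neither cytoplasmic ERK phosphatase passed the test with all libraries.

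The phosphatases that act mainly on JNK and p38, DUSP8, DUSP10 and DUSP16, were low in these cells. DUSP10 (ENSG00000143507, chromosome 1, 221701424 to 221742089, minus strand) was at 1.91, 1.78 and 1.20 FPKM in NC and at 2.66, 2.69 and 1.80 in siPOLR1F. Replicate 3 was the lowest of each group, and siPOLR1F replicate 3 fell within the NC range. Its estimated log2 fold change, 0.55, was as large as that of DUSP5, but with an SE of 0.23 (95% interval 0.04 to 1.07; edgeR adjusted p = 0.129) on 237 to 536 counts per library.

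DUSP16 (ENSG00000111266, chromosome 12, 12473282 to 12562863, minus strand) was at 1.38, 1.25 and 1.37 FPKM in NC and at 1.19, 1.49 and 1.35 in siPOLR1F. The siPOLR1F libraries enclosed the NC libraries. The log2 fold change was 0.01 (SE 0.12, 95% interval -0.26 to 0.29; edgeR adjusted p = 0.952). An unnamed gene on the other strand overlaps DUSP16 at 19.6% of its NC level, so reads may be divided between them.

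DUSP8 (ENSG00000184545, chromosome 11, 1554051 to 1572271, minus strand) had 118, 141 and 141 counts in NC and 196, 133 and 150 in siPOLR1F. In FPKM these were 0.335, 0.418 and 0.405 against 0.567, 0.380 and 0.432. The siPOLR1F replicate 1 library was the highest, siPOLR1F replicate 2 lay within the NC range and siPOLR1F replicate 3 just above it, so the groups overlapped. Fitted without the filter, the log2 fold change was 0.27 (SE 0.21; edgeR adjusted p = 0.529). The pseudogene DUSP8P5 took 23 to 75 counts per library, so the low values of DUSP8 are uncertain.

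DUSP14 (ENSG00000276023, chromosome 17, 37489891 to 37513498, plus strand) encodes a small phosphatase without the kinase-binding domain. It was at 14.3, 15.6 and 18.2 FPKM in NC and at 14.1, 13.4 and 15.2 in siPOLR1F. NC replicate 3 was the highest, and the groups overlapped between 14.3 and 15.2. The log2 fold change was -0.17 (SE 0.10, 95% interval -0.39 to 0.05; edgeR adjusted p = 0.266).

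**Figure D2:**
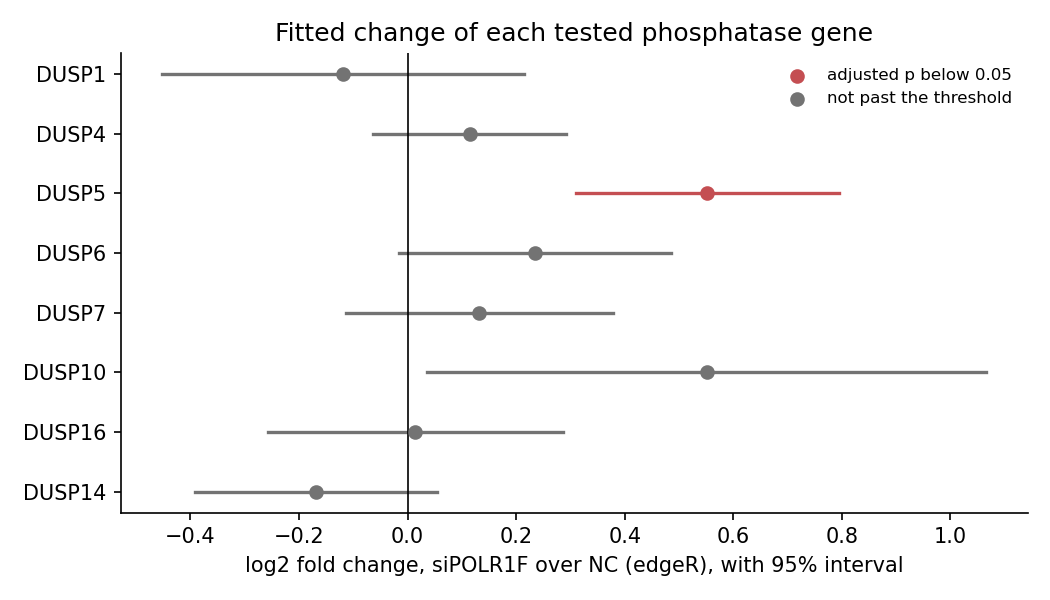
Fitted log2 fold change of the 8 tested phosphatase genes, siPOLR1F over NC, as points with 95% intervals from edgeR, red where the adjusted p is below 0.05. DUSP5 at 0.55 is the red point, DUSP10 has the same estimate with an interval from 0.04 to 1.07, and DUSP1 and DUSP14 lie below 0.

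DUSP5 made up more, and DUSP1 less, of the phosphatase transcripts in siPOLR1F. DUSP5 held 12.7%, 12.4% and 11.2% of the summed FPKM of the 9 genes in NC and 19.4%, 15.4% and 17.5% in siPOLR1F. DUSP1 held 62.5%, 66.8% and 67.8% in NC and 56.7%, 61.8% and 60.3% in siPOLR1F. No siPOLR1F library overlapped an NC library in either share. The sum itself overlapped, at 194, 258 and 261 FPKM in NC and 213, 244 and 265 in siPOLR1F. These shares are a description with no test, and a rise of DUSP5 alone lowers the share of the others.

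**Figure D3:**
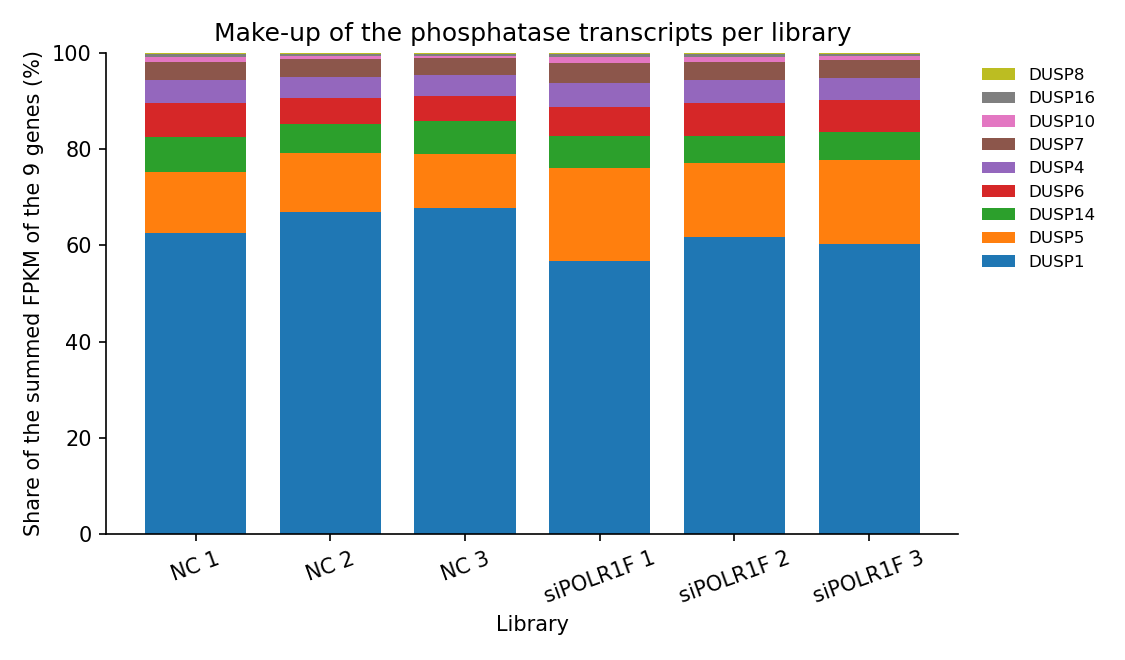
Share of each gene in the summed FPKM of the 9 phosphatase genes, 1 bar per library. The orange DUSP5 segment spans 11.2% to 12.7% in the NC bars and 15.4% to 19.4% in the siPOLR1F bars.

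Whether DUSP5 moved differently from the other members was examined with its ratio to each of the other 7 tested members within a library. DUSP5 was picked after its rise was seen in these same libraries, so ratios without overlap partly restate that rise. Its ratio to DUSP1 was 0.203, 0.186 and 0.165 in NC and 0.342, 0.250 and 0.290 in siPOLR1F, without overlap. The ratios to DUSP4, DUSP7 and DUSP14 did not overlap either, with log2 differences of 0.44, 0.42 and 0.72. Those to DUSP6 and DUSP16 overlapped, and the ratio to DUSP10 differed by -0.01. The exact two-sided permutation p was 0.1 for each of the 4 ratios without overlap, the smallest that 3 against 3 libraries allow, and 0.175 after adjustment over the 7 ratios. This exact test cannot pass the threshold with 3 against 3 libraries, so its p does not settle whether DUSP5 moved differently from the other members.

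NC replicate 1 was the lowest NC library for 7 of the 9 members, and siPOLR1F replicate 1 the lowest siPOLR1F library for 5 of 9. The 5 tested genes with a mean of at least 1 FPKM whose log2 counts, scaled to library size, followed DUSP5 most closely over the 6 libraries were TOP3A, HADH, SLC27A4, UGGT1 and SLC39A14, chosen from 11663. Pearson's r was 0.997 to 0.999 over 6 libraries, a description of libraries that share the group difference. TOP3A, a DNA topoisomerase, was at 9.74 to 11.3 FPKM in NC and 12.2 to 13.6 in siPOLR1F. SLC27A4, a fatty acid transport protein, was at 9.68 to 13.1 and 16.2 to 20.5.

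For the other phosphatases of the wider family, calls are given beside a background of 10.3% of all tested genes higher and 6.94% lower. Of the 3 further typical family members, DUSP2, DUSP9 and the catalytically inactive STYXL1, 1 rose and 2 did not pass. DUSP2, a nuclear phosphatase best known from immune cells, was at 2.66, 3.16 and 2.46 FPKM in NC and at 4.30, 3.92 and 3.95 in siPOLR1F, without overlap (edgeR log2 fold change 0.56, SE 0.14, adjusted p = 0.0289). That call ended without NC replicate 1 (adjusted p = 0.0757) or 3 (0.0905) and without siPOLR1F replicate 1 (0.0922), 2 (0.0626) or 3 (0.0729); over its alternatives the range was 0.00361 to 0.0922. Of 8 atypical dual-specificity phosphatases tested, 0 passed by edgeR, with 2 at an unadjusted p under 0.05. DESeq2 called 1 of them, DUSP12 (adjusted p = 0.0380), as did limma on log2(FPKM + 1) (0.0487) and on log2(FPKM + 0.1) (0.0496). Of the 2 most abundant ones, DUSP12 differed by 0.25 on the log2 scale (edgeR adjusted p = 0.0604, from 0.0380 to 0.1702 over its alternatives), and DUSP3, which acts on ERK and JNK, by 0.18 (0.0876).

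Among phosphatases of other families that act on MAP kinases or their activators, 4 of 16 rose and 12 did not pass. Of all tested genes 10.3% were higher. The median log2 fold change of the 16 was -0.05, with 7 of them above 0, beside a median of -0.01 for all genes tested. PTPRJ, a receptor tyrosine phosphatase, went from 6.81, 7.30 and 7.49 FPKM in NC to 10.3, 10.5 and 10.6 in siPOLR1F (edgeR log2 fold change 0.54, SE 0.05, adjusted p = 5.96e-04). PPP2R2A, a regulatory subunit of protein phosphatase 2A, went from 5.91, 6.23 and 6.03 to 8.84, 8.58 and 9.15 (0.56, SE 0.06, adjusted p = 6.47e-04). Both kept separate groups and were called under each alternative tried. PTPN11, a phosphatase needed for ERK activation by growth factor receptors, rose by 0.34, and PPM1D, a p53-induced phosphatase of p38, by 0.45. PTPN11 was not called without NC replicate 3 (adjusted p = 0.0513), siPOLR1F replicate 1 (0.0563) or 3 (0.0515), within 1.80e-04 to 0.0586. PPM1D was not called without NC replicate 1 (0.0822) or 3 (0.0887) or without siPOLR1F replicate 1 (0.0774), 2 (0.0624) or 3 (0.139), within 0.00500 to 0.139. The number that rose was 2 without NC replicate 3, without siPOLR1F replicate 1 and without siPOLR1F replicate 3.

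Among the MAP kinases, which these phosphatases act on, 2 of 11 tested rose and 9 did not pass, beside 10.3% of all tested genes that were higher. The number that fell was 0, but 1 by DESeq2, as by edgeR with library size alone or a filter of 1 FPKM. MAPK6, an atypical MAP kinase, rose from 8.36, 7.82 and 7.08 FPKM to 16.8, 14.5 and 15.0 (edgeR log2 fold change 1.00, SE 0.09, adjusted p = 3.03e-04). NLK rose by 0.32 (adjusted p = 0.0379) but was not called when any one library was left out (0.0563 to 0.128; 0.0156 to 0.128 over its alternatives). Of 6 MAP kinase kinases 1 rose, MAP2K7, an activator of JNK, by 0.35 (adjusted p = 0.00847). Of 12 scaffold and adaptor proteins 1 fell, LAMTOR3, by 0.34 on the log2 scale (adjusted p = 0.0227). Among all tested genes 6.94% were lower. LAMTOR3 was not called when NC replicate 1 (0.0549) or NC replicate 3 (0.0669) was left out, nor without siPOLR1F replicate 1 (0.0589), 2 (0.0813) or 3 (0.0608), within 0.00474 to 0.0813.

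The list of immediate-early transcription factors held the largest share of calls among the lists: 11 of 21 tested rose and 10 did not pass. The median log2 fold change was 0.28, and 10.3% of all tested genes were higher. The list also holds regulators of such genes (SRF, ELK1, ELK3, ELK4 and CREB1), and it was chosen with earlier results of these data known. IER2 was at 24.0, 27.3 and 26.8 FPKM in NC and at 48.3, 45.0 and 50.6 in siPOLR1F, and EGR1 at 4.42, 5.49 and 6.24 and at 12.5, 10.2 and 10.999. ELK4, a partner of serum response factor and one of these regulators, rose by 0.64 and KLF10 by 0.56. DUSP1, itself known as an immediate-early gene, had a log2 fold change of -0.12. Without NC replicate 3 the number that rose was 7, as it was without siPOLR1F replicate 1, and it was 6 without siPOLR1F replicate 3. With no filter on low values it was also 6.

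Of 18 ERK feedback and ERK-induced genes, 2 rose, 1 fell and 15 did not pass, with a median of 0.11. Among all tested genes, 10.3% were higher and 6.94% lower. SPRY2, an inhibitor of receptor signalling to ERK, rose by 0.38 (edgeR adjusted p = 0.0135) and SPHK1, a sphingosine kinase, by 0.50 (0.0134). The ephrin receptor EPHA4 fell by 0.51 on the log2 scale (0.0161). SPRY2 was not called without siPOLR1F replicate 2 (0.0514) or 3 (0.0566), SPHK1 without replicate 3 (0.0533), and EPHA4 without NC replicate 3 (0.0595) or siPOLR1F replicate 1 (0.0606) or 2 (0.0556). Their ranges over all alternatives were 1.51e-04 to 0.0570, 3.70e-05 to 0.0692 and 4.42e-04 to 0.0842. The number that rose was 1 without siPOLR1F replicate 2 and 0 without replicate 3, against 6 by DESeq2 with all libraries.

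**Figure D4:**
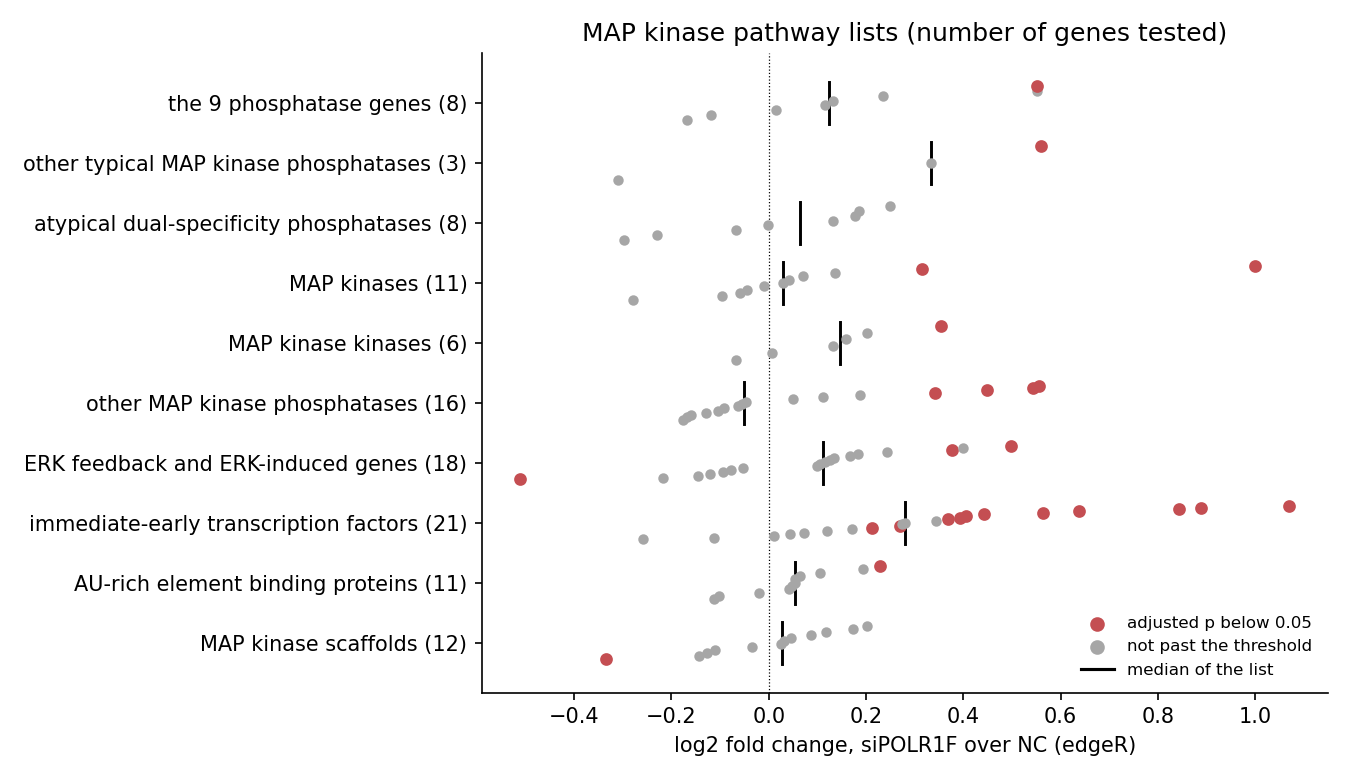
Log2 fold change of every tested gene in the phosphatase set and 9 related lists, siPOLR1F over NC from edgeR, red where the adjusted p is below 0.05, with a black line at each list's median. The immediate-early list has 11 red points of 21 and a median of 0.28, and the phosphatase set has 1 of 8 and a median of 0.12.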

How the data were processed

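Poly(A) RNA from 6 libraries of 8505C cells was read as pairs of 150 bases, per the labels' protocols. The submitters' processing notes name the tools fastp, HISAT2 and StringTie and the build GRCh38 (hg38). Tool versions, the annotation, strandedness and the handling of multi-mapped reads were not given in the sources used here. For every gene the authors deposited both the read count and the FPKM of each library, and the counts were used unchanged. Sample titles gave the groups and replicate numbers.

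Counts were tested across all 13564 genes with a mean of at least 0.5 FPKM (99.4% of the counts) with edgeR 4.0.16 in R 4.3.3 (TMM factors, quasi-likelihood test, two-sided, Benjamini-Hochberg, threshold 0.05), which was tested on simulated data. The SE is the log2 fold change divided by the square root of F, and 95% intervals use the fit's degrees of freedom. By chi-square over genes, every pair of libraries differed by more than sampling noise. Promoter windows came from RefSeq and UTRs from GENCODE 29. Windows of 7 of the 9 members were searched. DUSP5 had no window in the promoter set used, and DUSP4 was left out of the search.

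The members and lists were chosen with earlier results of these data known. Named genes were all members, POLR1F, up to 4 called genes per list by adjusted p (or the 2 most abundant), and the 5 genes most like the member with the smallest adjusted p. Alternatives were DESeq2 1.42.0, other scalings and filters, limma 3.58.1 on log2(FPKM + 1) and log2(FPKM + 0.1), a replicate block, and omission of single libraries. DUSP5 ratios were added after the data were seen.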

Additional observations from a re-analysis of the deposited data

How the results depend on the processing

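DUSP5 stayed above 0 under 16 alternatives (log2 fold change 0.45 to 0.64) and was called in 15. Without a filter on low values 0 members passed edgeR's test (DUSP5 had an adjusted p of 0.0676), and 663 genes were higher and 313 lower in all, against 1391 and 942. Leaving out each library gave 1 to 2 members called as higher, the second being DUSP6 without siPOLR1F replicate 1, and 730 to 1326 genes higher and 423 to 841 lower. The counts were 877 and 539 without NC replicate 3, 813 and 444 without siPOLR1F replicate 1, 898 and 517 without siPOLR1F replicate 2, and 730 and 423 without siPOLR1F replicate 3. With the replicate number as a block, 2 members were higher, DUSP5 and DUSP10 (edgeR adjusted p = 0.0326), DUSP12 was called (0.0491) and NLK no longer was (0.0562), with 1517 genes higher and 1125 lower. Same-numbered libraries deviated together with r = 0.293, 0.0157 and 0.274 for replicates 1, 2 and 3. Each library correlated best with its own number, but the second value was small. These values do not settle whether the numbers mark pairs, and the main test used no block. DUSP16 changed sign without NC replicate 2 (-0.029) and without siPOLR1F replicate 2 (-0.062), and leaving out each library gave -0.062 to 0.091; the cause was not tested. By counts instead of FPKM, DUSP1 held 50.5% of the members in NC and 44.7% in siPOLR1F, since counts are not divided by gene length. Leaving out a library moved the DUSP1 share in NC between 64.7% and 67.3% and in siPOLR1F between 58.5% and 61.1%. DUSP1, DUSP4, DUSP7 and DUSP14 kept their sign and missed the threshold under each alternative tried, but single libraries moved their log2 fold changes: DUSP1 from -0.28 without NC replicate 1 to -0.012 without siPOLR1F replicate 1, DUSP4 from 0.036 without NC replicate 1 to 0.16 without NC replicate 2, DUSP7 from 0.015 without NC replicate 1 to 0.21 without NC replicate 2, and DUSP14 from -0.24 without NC replicate 1 to -0.072 without NC replicate 3. DUSP8, with 118 to 196 counts, has the fewest counts of the members.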

Other observations

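The following values were chosen after they were seen. DUSP5-DT, a noncoding gene upstream of DUSP5 on the opposite strand, went the other way from DUSP5, at 120, 80 and 82 counts in NC and 48, 66 and 70 in siPOLR1F. Each siPOLR1F library was below each NC library, but the gene lay under the filter (0.389 FPKM in the NC mean), and fitted without it the log2 fold change was -0.60 (SE 0.26; edgeR adjusted p = 0.339).

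DUSP4 and DUSP7, on different chromosomes, kept a nearly fixed ratio. They were the pair of tested members with the highest Pearson's r over the 6 libraries (0.984, on log2 counts scaled to library size). The lowest was -0.947, for DUSP10 and DUSP14. DUSP4 FPKM over DUSP7 FPKM was 1.32, 1.18 and 1.22 in NC and 1.23, 1.25 and 1.19 in siPOLR1F, while DUSP7 alone ranged from 7.13 to 10.1 FPKM.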
